A study of Carya illinoinensis with 18 samples.

Results

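*CiPaw.02G141100* and *CiPaw.02G141200* are the Clade I calcineurin B-like (CBL) genes of pecan (*Carya illinoinensis*). They carry successive numbers on chromosome 2 by their names, and their identifiers in the deposited table, CIL1131S0075 and CIL1131S0076, are neighbours on one scaffold as well. They were chosen by name as a tandem pair, and make up 2 of the 31074 genes of the table. Grafted seedlings with a 'Pawnee' scion on seed-grown rootstock were kept in a growth chamber, and leaves were collected at 0 d (the untreated control) and after 3, 6, 9, 12 and 15 d without water. Each of the 6 days has 3 RNA-Seq libraries, 18 in all, and each sample pooled the leaves of several plants. The days share cultivar, graft and chamber and differ in the length of drought, and watered plants of the later days were not analysed here, so drought and plant age cannot be told apart.

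CBL proteins are Ca2+ sensors. When a stress raises cytosolic Ca2+, they bind it through EF-hands and then dock onto the NAF domain of CBL-interacting protein kinases (CIPKs), which activates the kinase and places it at a membrane. The Clade I genes group with *Arabidopsis* CBL10, which in *Arabidopsis* works with CIPK24 (SOS2) and CIPK8 in the salt tolerance of shoots.

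Levels are given in FPKM, fragment numbers divided by the length of the transcript and by the mapped fragments. Summed over genes, a library held 545598 to 587063 FPKM, and 23019 to 24403 genes were above 0. Read numbers, and hence the depth behind each value, are unknown. Pearson correlations between libraries of one day, on log2(FPKM + 1), ran from 0.862 to 0.992. RSEM, the estimator used by the authors, apportions a read that fits several genes, so how the FPKM of near-identical copies is split between them is uncertain. Their sum is less exposed to the split, but since FPKM divides by length it is free of it only for transcripts of equal length, and the lengths were not analysed here. In whole leaves, fewer cells of a type and less RNA per cell cannot be told apart.

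The qRT-PCR primers that the study designed for *CiPaw.02G141200* are shown because they mark the stretch by which this copy was also assayed. Each has 22 bases, with a GC content of 50% for the forward and 45.5% for the reverse primer. Whether they also match *CiPaw.02G141100* was not analysed here.
CiPaw.02G141200 forward: gtccgtctcgctaatacaactc
CiPaw.02G141200 reverse: ttggagctcttccttgtgtatg

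*CiPaw.02G141200* was the abundant copy, and its level fell during drought. It measured 18.17, 16.97 and 17.62 FPKM in replicates 1, 2 and 3 of 0 d, and 12.51, 20.70 and 10.82 FPKM at 3 d. At 6 d the libraries held 11.23, 13.47 and 6.70 FPKM, and at 9 d 10.45, 18.04 and 13.92 FPKM. The control libraries were tightly grouped, and 9 d replicate 2 lay inside their range. The level was 9.20, 10.08 and 8.66 FPKM at 12 d and 6.54, 6.44 and 8.98 FPKM at 15 d, and no library of 15 d reached a control library. The mean was 17.59 ± 0.601 FPKM (SD, n = 3) at 0 d and 7.32 ± 1.44 FPKM (SD, n = 3) at 15 d, or 0.416 of the control. At 15 d, 43.4% of the genes tested likewise had every library below every control library.

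*CiPaw.02G141100* was near absent at 0 d and 3 d and higher in most libraries from 6 d on, very unevenly between libraries. It was listed at 0 in replicates 1 and 2 and at 0.13 FPKM in replicate 3 of 0 d, and at 0, 0 and 0.24 FPKM at 3 d. At 6 d it stood at 0.64, 3.76 and 0.22 FPKM, and at 9 d at 0.75, 6.55 and 7.0 FPKM. Single libraries of these days thus differed by 17.1 times (6 d) and 9.33 times (9 d). It measured 1.91, 0.21 and 4.79 FPKM at 12 d, and 2.16, 1.39 and 5.47 FPKM at 15 d. Of the 12 libraries from 6 d to 15 d, 10 exceeded the highest value of 0 d and 3 d, and the exceptions were 6 d replicate 3 and 12 d replicate 2. How many genes did likewise over these days was not analysed here. At 15 d, 28.1% of the genes tested had every library above every control library, as this copy did.

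**Figure D1:**
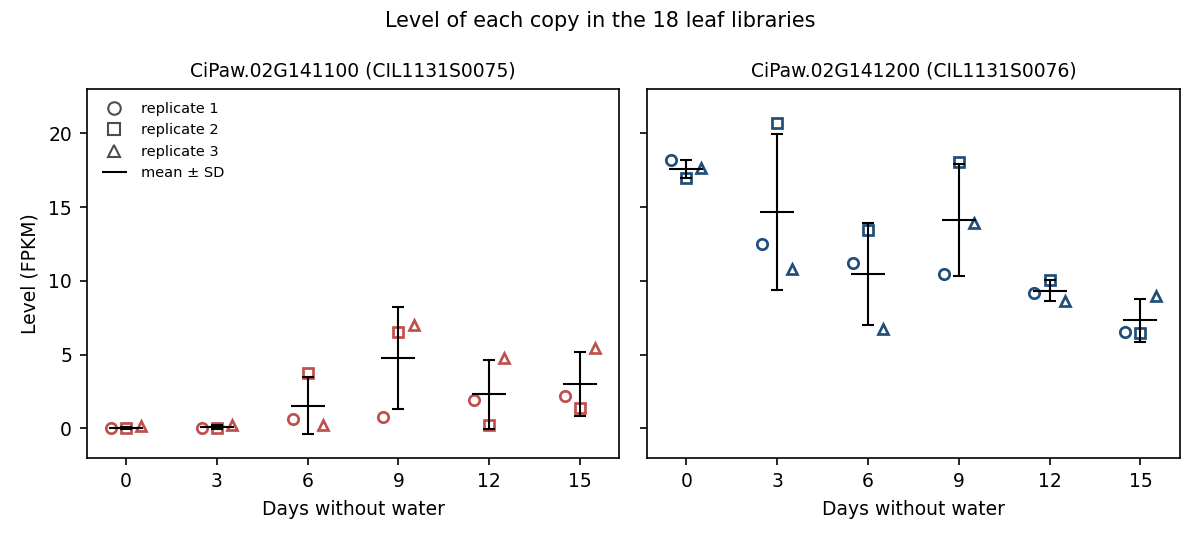
Level (FPKM) of each copy against days without water, one point per library. *CiPaw.02G141200* went from 16.97 to 18.17 FPKM at 0 d down to 6.44 to 8.98 FPKM at 15 d, while *CiPaw.02G141100* was at most 0.24 FPKM up to 3 d and reached 7.0 FPKM at 9 d.

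Ordered by mean, *CiPaw.02G141200* ran from 0 d through 3 d (14.68 FPKM), 9 d (14.14 FPKM), 6 d (10.47 FPKM) and 12 d (9.31 FPKM) to 15 d. *CiPaw.02G141100* ran from 9 d (4.77 FPKM) through 15 d (3.01 FPKM), 12 d (2.30 FPKM) and 6 d (1.54 FPKM) to 3 d and 0 d. In both orders the libraries of all neighbouring days overlapped. The spread of log2(FPKM + 1) within days was 0.86 (SD) for *CiPaw.02G141100*, larger than in 92.2% of the genes tested, and 0.33 for *CiPaw.02G141200*, larger than in 47.6%. In the plot of both levels, which is in FPKM, the scarce copy had the wider column of points only at 12 d and 15 d. Its SD was 2.3 and 2.2 FPKM on these days, against 0.72 and 1.4 FPKM for the abundant copy.

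Each day was compared with 0 d by limma on log2(FPKM + 1) over 24443 genes with a mean of at least 0.1 FPKM, and a gene was called at a Benjamini-Hochberg adjusted p under 0.05. Differences on this scale understate the change of a gene with low FPKM, and with a pseudocount of 0.1 in place of 1 those of *CiPaw.02G141100* were 4.70 at 9 d and 4.33 at 15 d. At 15 d *CiPaw.02G141200* was lower by a log2 difference of -1.17 (SE 0.26, adjusted p = 0.00152) and *CiPaw.02G141100* higher by 1.81 (SE 0.65, adjusted p = 0.0278), so that 1 copy was called in each direction. Among all genes, 22.1% were called higher and 34.0% lower at 15 d, and the median gene stood at -0.24. The fall of *CiPaw.02G141200* was called in all 18 fits that left out 1 library. Leaving out a library of a day not compared changes the SE but not the difference. With other scalings of the libraries the fall was smaller and still called by limma. It was -0.825 with quantile normalization (adjusted p = 0.0121) and -0.856 with median-ratio scaling (adjusted p = 0.00813). The rise of *CiPaw.02G141100* was not called without any 1 of the 0 d libraries, without 15 d replicate 1 or without 15 d replicate 3, where it was 1.40 (adjusted p = 0.114).

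On the days between, the copies passed the test at different times. At 9 d *CiPaw.02G141100* was higher by 2.18 (SE 0.65, adjusted p = 0.0272), where 15.6% of genes were called higher, whereas *CiPaw.02G141200* differed by -0.33 (adjusted p = 0.386), where 7.55% were called lower, and by -0.51 without 9 d replicate 2 or -0.14 without 9 d replicate 1. At 12 d *CiPaw.02G141200* was lower by -0.85 (SE 0.26, adjusted p = 0.0235), where 13.3% of genes were called lower, and *CiPaw.02G141100* differed by 1.39 (adjusted p = 0.117), where 17.8% were called higher. The limma call of *CiPaw.02G141100* at 9 d was lost without any 1 of the 0 d libraries, without 9 d replicate 2 (1.85) or replicate 3 (1.80), and that of *CiPaw.02G141200* at 12 d without any 1 of the 0 d libraries or 12 d replicates 1 or 3. Without 12 d replicate 2, which held 0.21 FPKM, *CiPaw.02G141100* was called at 12 d as well (1.98, adjusted p = 0.0288).

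At 3 d and 6 d limma called neither copy. At 3 d 0 of the 2 were called and 0 had an unadjusted p under 0.05, where 0.00409% of genes were called higher and 0.0245% lower. At 6 d 0 were called and 1 had an unadjusted p under 0.05, with 11% of genes called higher and 2.90% lower. *CiPaw.02G141200* was at -0.74 (adjusted p = 0.0705) at 6 d, and *CiPaw.02G141100* at 1.03 (adjusted p = 0.318), or 0.44 without 6 d replicate 2. With quantile normalization or median-ratio scaling of the libraries, *CiPaw.02G141200* was called lower at 6 d (-0.98 and -0.93), as it was without 3 d replicate 2. Between successive days limma called 0 of the 2 copies, with 0 at an unadjusted p under 0.05. Among all genes, 4.34% were called higher and 0.671% lower from 3 d to 6 d, 0.00409% higher and 0% lower from 6 d to 9 d, 0% either way from 9 d to 12 d, and 5.16% higher and 15.2% lower from 12 d to 15 d. A moderated F-test over all days passed for *CiPaw.02G141100* (F = 3.86, adjusted p = 0.0364) and *CiPaw.02G141200* (F = 5.51, adjusted p = 0.0114), as it did for 57.8% of genes. The F-test of *CiPaw.02G141100* lost its call in 11 of 18 fits without 1 library, with an adjusted p of up to 0.0766 in limma.

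**Figure D2:**
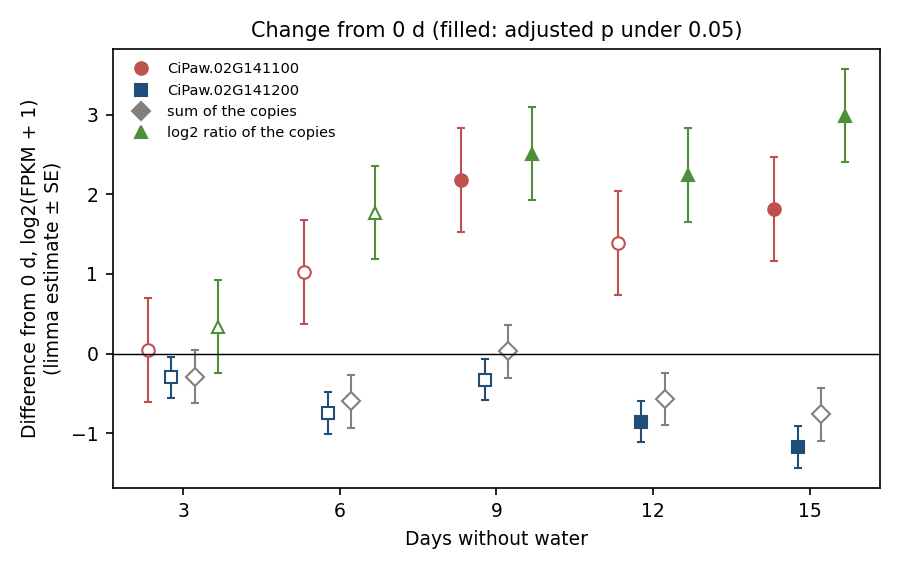
Difference from 0 d on the log2(FPKM + 1) scale (limma estimate with SE bars) against days without water, for each copy, their sum and their ratio. Filled symbols passed an adjusted p under 0.05, as the copies did in opposite directions at 15 d (1.81 and -1.17).

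The plot of changes by day shows the copies on opposite sides of 0, and whether they changed differently was tested on their ratio. The log2 ratio of *CiPaw.02G141100* to *CiPaw.02G141200* was fitted by limma beside 16380 pairs of genes with neighbouring numbers. It rose by 2.51 at 9 d (SE 0.59, adjusted p = 0.00855), by 2.24 at 12 d (adjusted p = 0.0103) and by 2.98 at 15 d (adjusted p = 5.88e-04). These sizes rest on the pseudocount of 1, and with 0.1 they were 5.04, 4.37 and 5.60. The ratio was called for 24.4%, 34.4% and 56.6% of neighbouring pairs on these days, so that a called ratio was common. The change of the CBL pair was larger in size than that of 93.3, 88.2 and 85.5% of pairs, respectively. These pairs were taken by number alone and not as duplicated genes, so this is no comparison with other tandem copies. Over all days the F-test of the ratio passed (F = 8.55, adjusted p = 0.00233), as it did for 55.5% of pairs. A pair with 1 gene called higher and the other lower at 15 d, as here, made up 12.9% of neighbouring pairs.

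The ratio was not called by limma at 3 d (0.34, adjusted p = 0.894, and 0.06 without 3 d replicate 3 or 0.65 without 3 d replicate 2), where 0% of pairs were called, nor at 6 d (1.77, adjusted p = 0.0623), where 11.8% were. At 6 d the call was gained with the quantile-normalized values (1.87, adjusted p = 0.0401) and without 9 d replicate 1, 12 d replicate 2 or 12 d replicate 3. The calls of 9 d and 15 d held in all 18 fits without 1 library, and that of 12 d was lost without 12 d replicate 3 (1.66, adjusted p = 0.059). Only leaving out a library of 0 d or of the day compared can change the difference itself.

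**Figure D3:**
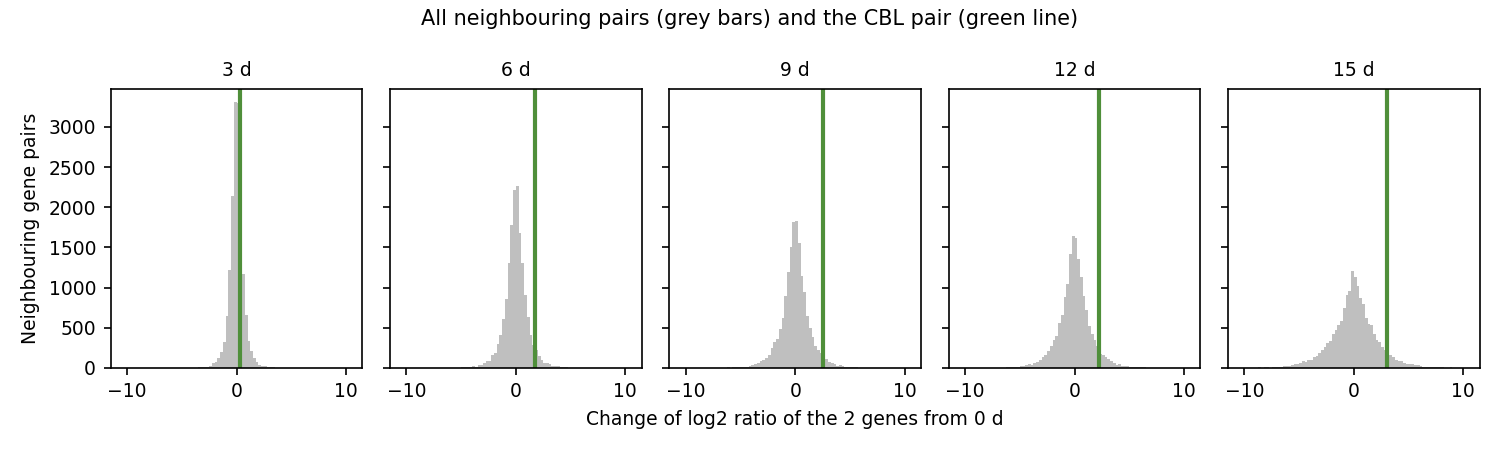
Number of neighbouring gene pairs (grey bars) against the change of the log2 ratio of their genes from 0 d, one panel per day, with the CBL pair as a green line. The line lies at 0.34 at 3 d and at 2.98 at 15 d, where the change was larger than in 85.5% of pairs.

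In untransformed FPKM, the share of *CiPaw.02G141100* in the sum of the pair needs no pseudocount. It was 0, 0 and 0.732% in the libraries of 0 d, and 0, 0 and 2.17% at 3 d. It was 5.39, 21.8 and 3.18% at 6 d, and 6.70, 26.6 and 33.5% at 9 d. It was 17.2, 2.04 and 35.6% at 12 d, and 24.8, 17.8 and 37.9% at 15 d. From 6 d on, 11 of 12 libraries exceeded 2.17%, the highest share of 0 d and 3 d, and 12 d replicate 2 did not. *CiPaw.02G141200* nevertheless stayed the higher copy in 18 of 18 libraries, by 1.64 times at the least (15 d replicate 3). How many neighbouring pairs had such a rise of the share was not analysed here.

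The mean share was 0.244% in the controls and 10.1 ± 10.2% after 6 d without water. It was 22.3 ± 13.9% after 9 d, 18.3 ± 16.8% after 12 d and 26.8 ± 10.2% after 15 d (SD, n = 3 each). On each day from 6 d on, all 3 libraries lay above all control libraries, with an exact two-sided permutation p of 0.1, the smallest that 3 against 3 libraries can give. At 3 d the exact p was 1. Over the 18 libraries the share rose with day (Pearson r = 0.718, permutation p = 9.6e-04, adjusted p = 0.00288; Spearman rho = 0.778, permutation p = 2.2e-04, adjusted p = 0.00132). Adjustment covered the 6 p values of 3 relations. Without 12 d replicate 3 and 15 d replicate 3, r was 0.646 (permutation p = 0.00765).

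**Figure D4:**
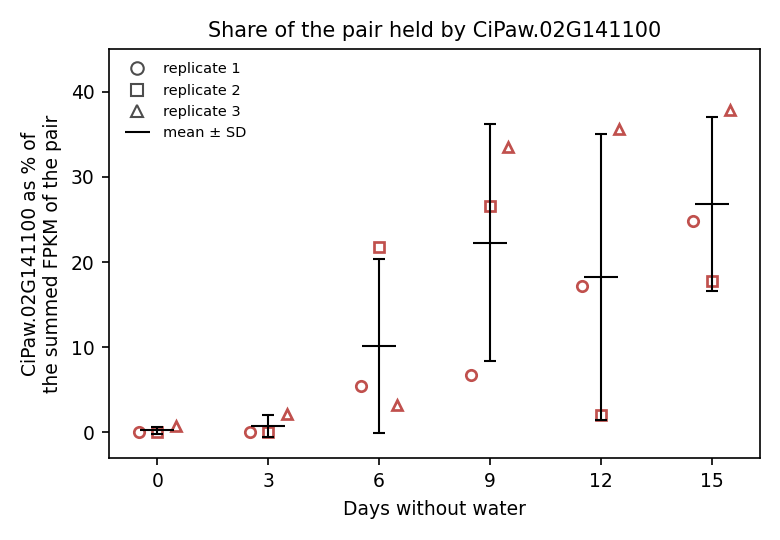
*CiPaw.02G141100* as a percentage of the summed FPKM of the pair against days without water, one point per library. The share was at most 2.17% up to 3 d and lay between 17.8 and 37.9% at 15 d.

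The plot of shares by day also shows that the 3 libraries of 12 d spanned nearly the whole range of the later days. On the log2(FPKM + 1) scale, the summed level of the pair differed less from 0 d at 15 d than either copy. Its mean was 17.63 FPKM in the controls, then 14.76 FPKM after 3 d, 12.01 FPKM after 6 d and 18.9 FPKM after 9 d. It was 11.62 FPKM after 12 d and 10.33 FPKM after 15 d. At 15 d the libraries held 8.70, 7.83 and 14.45 FPKM against 18.17, 16.97 and 17.75 FPKM at 0 d. *CiPaw.02G141200* had lost 10.3 FPKM on average and *CiPaw.02G141100* had gained 2.96 FPKM. The limma difference of the sum at 15 d was -0.76 (SE 0.33, adjusted p = 0.0626), and no day was called. It was -0.37 (adjusted p = 0.332) with quantile normalization and -0.44 (adjusted p = 0.254) with median-ratio scaling. The sum at 15 d passed the threshold without 15 d replicate 3 (-1.01, adjusted p = 0.0278) and without 3 d replicate 2, 6 d replicate 2, 6 d replicate 3 or 9 d replicate 1.

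Whether the copies varied together was examined over the libraries. The libraries 6 d replicate 2 and 15 d replicate 3 were the highest of their day in both copies. At 9 d and 12 d replicate 2 was the highest in *CiPaw.02G141200*, but in *CiPaw.02G141100* the middle library at 9 d and the lowest at 12 d. The highest libraries of *CiPaw.02G141200* at 0 d (replicate 1) and 3 d (replicate 2) had *CiPaw.02G141100* listed at 0. Over all 18 libraries the levels, as log2(FPKM + 1), gave r = -0.198 by Pearson (p = 0.429 by permutation, adjusted p = 0.429) and a Spearman rho of -0.356 (permutation p = 0.148, adjusted p = 0.222). Without 9 d replicates 2 and 3, r was -0.507 (permutation p = 0.0465). After subtracting day means, r was 0.476 (permutation p = 0.118, adjusted p = 0.222) and rho 0.412 (permutation p = 0.186, adjusted p = 0.223), and r fell to 0.076 without 6 d replicate 2 and 9 d replicate 1. Neither relation passed the adjustment.

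**Figure D5:**
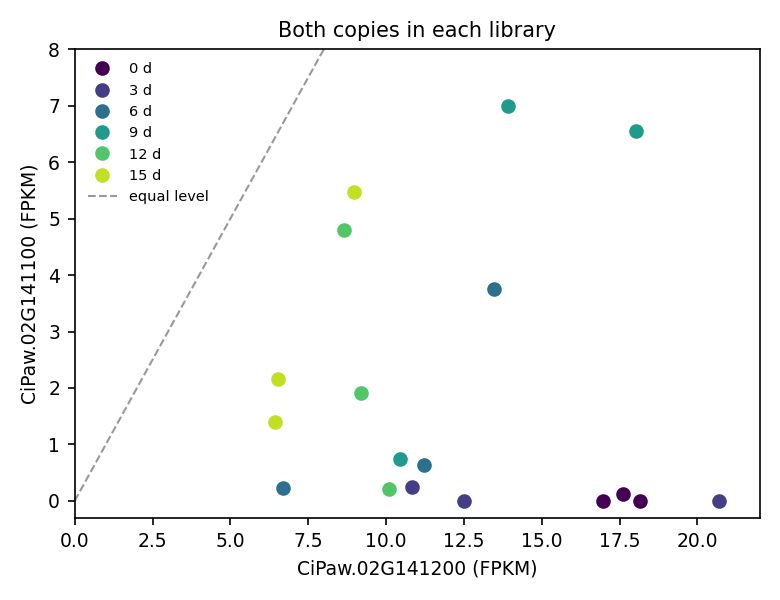
Level of *CiPaw.02G141100* against that of *CiPaw.02G141200* (both FPKM), one point per library, with a dashed line of equal level. All 18 libraries lie on the side where *CiPaw.02G141200* is higher, nearest to the line in 15 d replicate 3 (1.64 times).

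The plot of both copies in each library shows the controls at the lower right and most libraries of 12 d and 15 d at the left. Of the other CBL genes, 6 could be placed in the table, by hand, from day means and test values in earlier results of these data. Their directions were thus known when the rows were chosen, and their calls are given only as a description. At 15 d 2 were called higher and 4 lower by limma, where 22.1% of all genes were called higher and 34.0% lower. In Clade III, the clade of *Arabidopsis* CBL1 and CBL9 at the plasma membrane, *CiPaw.11G071800* rose from 8.51 to 24.9 FPKM (log2 difference 1.45, adjusted p = 4.35e-05). In Clade IV, the clade of the tonoplast sensors CBL2 and CBL3, *CiPaw.09G110800* rose (0.99, adjusted p = 9.91e-04) and *CiPaw.11G207000* fell from 31.6 to 10.1 FPKM (-1.56, adjusted p = 2.31e-06). *CiPaw.12G140900* of the same clade was at -0.39 (adjusted p = 0.0421) and lost the call with quantile normalization (-0.16), with median-ratio scaling (-0.06) and without any 1 of the 0 d libraries, 9 d replicate 2, 12 d replicate 1 or 15 d replicate 1. Both Clade II genes, of the clade of CBL4 (SOS3), fell, *CiPaw.05G196600* by a log2 difference of -2.84 (adjusted p = 1.40e-05) and *CiPaw.11G119600* by -1.56 (adjusted p = 0.00158). The median of the 6 was -0.97, against -0.24 over all genes. Thus *CiPaw.02G141200* moved in the direction of 4 of these genes and *CiPaw.02G141100* in that of 2. *CiPaw.10G083600* was not analysed here.

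The Clade D CIPK genes group with the kinases that work with *Arabidopsis* CBL10, and 3 could be placed. Their rows were chosen in the same way, so their calls too are only a description. At 15 d limma called *CiPaw.07G161900* higher (1.27, adjusted p = 1.58e-04), and *CiPaw.04G172400* (-0.98, adjusted p = 9.58e-04) and *CiPaw.03G245300* (-0.49, adjusted p = 0.00345) lower. *CiPaw.04G172400* was not called with quantile normalization (-0.58), nor *CiPaw.03G245300* with median-ratio scaling (-0.14). Over the 18 libraries *CiPaw.02G141100* had an r of 0.714 with *CiPaw.07G161900*, -0.629 with *CiPaw.04G172400* and -0.381 with *CiPaw.03G245300*. *CiPaw.02G141200* had an r of -0.638 with *CiPaw.07G161900*, 0.765 with *CiPaw.04G172400* and 0.660 with *CiPaw.03G245300*. Ranked from the highest r among 24442 genes, *CiPaw.07G161900* stood at 672 for *CiPaw.02G141100*, and *CiPaw.04G172400* and *CiPaw.03G245300* at 565 and 3518 for *CiPaw.02G141200*. Among the other CBL genes placed, r with *CiPaw.02G141100* ran from -0.743 (*CiPaw.05G196600*) to 0.646 (*CiPaw.09G110800*). With *CiPaw.02G141200* it ran from -0.718 (*CiPaw.11G071800*) to 0.701 (*CiPaw.11G207000*). Values of this size were thus not particular to the kinases. All these correlations share the days and libraries and are given as a description. *CiPaw.08G057800* was not analysed here.

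Around the pair, 9 of the 10 genes within 5 numbers on the scaffold were tested. At 15 d 1 was called higher and 3 lower by limma, with a median difference of -0.31, beside 22.1% higher and 34.0% lower among all genes. Next to *CiPaw.02G141200*, CIL1131S0077 was lower by -1.76 (adjusted p = 0.00155), and on the other side of the pair CIL1131S0074 differed by 0.10 (adjusted p = 0.708). The mean of CIL1131S0074 was only 0.165 FPKM, against 3.48 FPKM for CIL1131S0077. At that level little change can show on the log2(FPKM + 1) scale, so CIL1131S0074 cannot be called stable.

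The genes whose levels followed each copy most closely were sought by Pearson r of log2(FPKM + 1) over the 18 libraries. For *CiPaw.02G141100* they were CIL1061S0075 (r = 0.941) and CIL1520S0039 (r = 0.924), of which CIL1061S0075 likewise had its highest mean at 9 d (14.5 FPKM, against 0.387 FPKM at 0 d). For *CiPaw.02G141200* they were CIL1084S0011 (r = 0.897) and CIL0121S0011 (r = 0.894), and the mean of CIL0121S0011 went from 53.9 FPKM at 0 d to 14.8 FPKM at 15 d. The other copy ranked 14258 of 24442 genes in likeness to *CiPaw.02G141100*.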

How the data were processed

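The submitters' processing notes list fastp 0.18.0, Bowtie2 2.2.8, HISAT2, StringTie 1.3.1 and RSEM, and the genome build and annotation are not given in the sources used here. The authors deposited one FPKM value with 2 decimals for each gene in each library. Leaf markers were not checked, since 0 identifiers of the table were found in the RefSeq gene table. The identifiers of the pair came with its definition. The other CiPaw names were matched to rows by hand, from day means and test values in earlier results of these data, so their values are not independent of the names.

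Values were transformed as log2(FPKM + 1), and genes with a mean of at least 0.1 FPKM were fitted with limma 3.58.1 (R 4.3.3), one mean per day, eBayes with trend, two-sided, with Benjamini-Hochberg adjustment. The sum replaced both copies as 1 feature. The fit was tested on simulated data. Permutation tests of r and rho (100000 resamples, or exact within days) used numpy 2.4.6 in Python 3.11.15. The exact test of 3 against 3 libraries used scipy 1.17.1. By the methods of the study, the 3 libraries of a day are biological repetitions, each from at least 3 plants.

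Named were the copies, the other CBL and Clade D CIPK genes whose rows could be settled, flanking genes within 5 numbers, and 2 genes most like each copy. CIL1131S0074 and CIL1131S0077 were singled out as next neighbours. The members and lists were chosen with earlier results of these data known. Alternatives were other pseudocounts, filters, scalings and fits, and leaving out libraries.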

Additional observations from a re-analysis of the deposited data

How the results depend on the processing

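Of 852 alternative values of the copies, their sum and their ratio, 798 kept their direction and side of the threshold, as did 224 of 234 of the other CBL and CIPK genes. With a pseudocount of 0.1, *CiPaw.02G141100* was called at 12 d (3.46) and the ratio at 6 d (3.68). With quantile normalization, *CiPaw.02G141100* at 3 d was -0.016, *CiPaw.02G141200* was -0.98 at 6 d and 0.075 at 15 d against the day before, the ratio at 6 d was 1.87 and the sum at 9 d -0.12. With median-ratio scaling, *CiPaw.02G141200* was -0.93 at 6 d and 0.019 at 15 d against the day before, and the sum at 9 d was -0.10. Fitting only the 2 days compared ended the call of *CiPaw.02G141100* at 9 d (2.18, adjusted p = 0.0637 from limma) and gave calls of the ratio at 6 d (1.77) and of the sum at 15 d (-0.76). Causes were not tested. The scalings moved the median of all genes at 15 d from -0.24 to -0.03 (median-ratio) and -0.01 (quantile).

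Without 1 library, *CiPaw.02G141100* against 0 d ranged from -0.059 to 0.10 at 3 d (reversed without 3 d replicate 3), 0.44 to 1.42 at 6 d, 1.80 to 2.90 at 9 d, 0.85 to 1.98 at 12 d and 1.40 to 2.12 at 15 d, and from -0.17 to 0.96 at 15 d against the day before (reversed without 12 d replicate 2). *CiPaw.02G141200* ranged from -0.94 to -0.48 at 6 d (called without 3 d replicate 2) and -0.90 to -0.81 at 12 d. The ratio ranged from 1.38 to 2.03 at 6 d and 1.66 to 2.88 at 12 d, and the sum from -0.19 to 0.35 at 9 d (reversed without 9 d replicate 2, -0.19, or replicate 3, -0.08) and -1.01 to -0.61 at 15 d. The F statistic of *CiPaw.02G141100* ranged from 3.05 to 6.73 and lost its call in 11 of 18 fits, those without a library of 0 d or 3 d, 9 d replicate 2 or 3, 12 d replicate 1, or 15 d replicate 1 or 3.

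Counts of genes called by limma moved with the setting. At 3 d 1 was higher and 6 lower, against 0 to 2 and 0 to 17. At 6 d 2678 were higher and 709 lower, against 1254 and 1340 with median-ratio scaling and 1615 and 1408 with quantile normalization, and 1764 were lower with only the 2 days, where 3006 rather than 1936 pairs were called. At 9 d 3818 and 1845 became 2270 and 2933 with median-ratio scaling and 2384 and 890 with only the 2 days. At 12 d 4344 and 3250 became 2270 and 1756 with only the 2 days. At 15 d 5396 and 8312 became 7187 and 6971 with median-ratio scaling and 6838 and 6712 with quantile normalization.

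Replicate numbers did not pair the libraries, since 7 of 18 correlated best with their own number (median r of same-numbered libraries -0.0352). With the replicate number as a block, 31 of 31 values kept their call, among them the ratio at 15 d (2.98, adjusted p = 5.1e-04 from limma). Chosen after seeing the data, FPKM without logarithm gave an r of -0.057 between the copies. On the log2 scale, leaving out each library gave -0.366 to -0.108. *CiPaw.02G141100* was at most 0.24 FPKM at 0 d and 3 d, and with the depth unknown a value of 0 there does not show that the gene was silent.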
